A study of Mus musculus with 9 samples.

Results

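Complex I (NADH:ubiquinone oxidoreductase) is the entry point of electrons from NADH into the respiratory chain of the mitochondrion, and the genes of its nuclear-encoded subunits were described here in 3 mouse tissues. Members were all genes whose symbol begins with Ndufa, Ndufb, Ndufc, Ndufs or Ndufv, leaving out the Ndufaf assembly factors. This gave 37 of the 17753 genes of the expression matrix, and all 37 passed the filter on low values. Of 46 symbols in the reference table that match this rule, 9 were not analysed here. RNA-seq was done on brown fat, white fat and soleus muscle, a postural muscle of the hind limb, taken from untreated male C57BL/6J mice of wild-type genotype at an age of 3 months, with 3 libraries of total RNA for each tissue. The labels state 3 mice and do not say which libraries share a mouse, so p-values measure the spread between these libraries. Which depot the white fat came from is not stated in the labels. Levels are in FPKM, that is, fragments relative to transcript length and to the fragments mapped in that library. Being per length, they allow levels of different genes to be set side by side.

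Complex I has the shape of an L. Its matrix arm holds the NADH-binding site, a chain of iron-sulfur clusters and the site where ubiquinone takes up the electrons, and its membrane arm pumps protons across the inner membrane. The catalytic work is done by core subunits with bacterial relatives, some encoded in the nucleus and the rest in mitochondrial DNA, and accessory subunits surround them. All are assembled in fixed proportions. Brown fat burns fuel to make heat through mitochondria uncoupled by Ucp1, white fat stores lipid and holds few mitochondria, and the soleus is rich in oxidative fibres. Among the 37 genes, 15 belong to the matrix arm, 9 to the proximal and 10 to the distal part of the membrane arm. The other 3 match the symbol rule only: Ndufa4 encodes a protein now placed in complex IV, Ndufa4l2 is its paralog, and Ndufs5-ps is a transcribed pseudogene. Described here as core subunits are 6 of the members (Ndufv1, Ndufv2, Ndufs1, Ndufs3, Ndufs7 and Ndufs8), and no mitochondrially encoded subunit was analysed.

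The promoters of 4 members are shown because these genes moved farthest in opposite directions, relative to the rest of the complex, between brown fat and soleus: Ndufa10 and Ndufv1 were relatively highest in brown fat, and Ndufb2 and Ndufa11 relatively lowest. Each line gives the 250 bases upstream of the start of the gene, 5′ to 3′ on the strand of the gene, from RefSeq on build GRCm38.p6. Capitals mark the letters of 5 motifs searched on both strands, of which 3 occur in these windows: TGACGTCA (the cAMP response element), GCGC and TGCGC separated by any base (NRF1) and AAGGTCA (estrogen-related receptors).
Ndufa10 (chr1:92473759-92474008, minus strand): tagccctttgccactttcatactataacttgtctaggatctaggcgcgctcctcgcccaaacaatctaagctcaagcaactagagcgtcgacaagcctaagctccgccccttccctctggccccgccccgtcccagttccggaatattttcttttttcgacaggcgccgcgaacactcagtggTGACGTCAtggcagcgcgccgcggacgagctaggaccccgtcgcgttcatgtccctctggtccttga
Ndufv1 (chr19:4012756-4013005, minus strand): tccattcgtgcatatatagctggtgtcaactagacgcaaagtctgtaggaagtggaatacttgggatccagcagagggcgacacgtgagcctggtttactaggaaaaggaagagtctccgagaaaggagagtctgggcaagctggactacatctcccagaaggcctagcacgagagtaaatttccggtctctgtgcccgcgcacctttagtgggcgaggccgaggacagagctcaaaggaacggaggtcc
Ndufb2 (chr6:39592315-39592564, plus strand): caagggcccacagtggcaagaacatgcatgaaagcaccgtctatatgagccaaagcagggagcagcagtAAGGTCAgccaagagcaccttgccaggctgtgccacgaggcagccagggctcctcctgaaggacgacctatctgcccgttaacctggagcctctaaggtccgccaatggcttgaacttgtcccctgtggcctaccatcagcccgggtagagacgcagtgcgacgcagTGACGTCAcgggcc
Ndufa11 (chr17:56717512-56717761, plus strand): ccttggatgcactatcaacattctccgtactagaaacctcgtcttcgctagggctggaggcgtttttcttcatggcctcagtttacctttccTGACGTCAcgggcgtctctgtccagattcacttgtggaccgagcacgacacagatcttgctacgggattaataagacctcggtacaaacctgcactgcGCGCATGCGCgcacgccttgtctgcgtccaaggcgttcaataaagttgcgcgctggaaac

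RefSeq promoters were matched for 32 of the 37 members. The letters TGACGTCA stood in the promoters of Ndufa10, Ndufa11 and Ndufb2, which is 3 of 32 (9.38%), against 1.62% of all 27025 promoters of the same length. They therefore occurred in a gene that was relatively high and in 2 that were relatively low in brown fat. The NRF1 motif was found in 6 of 32 (18.8%, Ndufa5, Ndufa8, Ndufa11, Ndufb4, Ndufs5 and Ndufs6) against 3.86% of all promoters, and AAGGTCA in 3 (9.38%, Ndufb2, Ndufb4 and Ndufs5) against 4.05%. CCGGAAG (the ETS factor GABP) was found in 3 (9.38%, Ndufb6, Ndufb7 and Ndufs3) against 7.05%, and AAGATGGC (YY1) in 0 of 32 against 1.59%. The window of Ndufv1 held none of the 5 motifs. No site of these motifs overlapped another in the 4 windows shown. These matches describe letters alone.

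Read totals were not given; judged by the steps between low values, the deepest library (white fat replicate 3) had 3.58 times the depth of the shallowest (white fat replicate 2). The tissues matched their labels. Ucp1 stood at 3386, 4108 and 3562 FPKM in brown fat, 7.81, 1.45 and 35.7 FPKM in white fat and 4.14, 1.41 and 0.617 FPKM in soleus. The 4 slow and the 4 fast fibre genes measured, of 6 listed for each fibre type, summed to 21292 to 25420 and 25149 to 30491 FPKM in soleus. Brown fat held 2.54 to 6.07 FPKM of the slow and 25.5 to 192 FPKM of the fast fibre genes, and white fat at most 3.41 FPKM of either. Without Cox8b, which stood at 4243 to 5623 FPKM in soleus, the 5 remaining brown adipocyte markers summed to 15.5, 5.56 and 64.1 FPKM in white fat replicates 1, 2 and 3, against 5752 to 6590 FPKM in brown fat.

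Within each tissue the levels of the 37 genes covered a wide range. The median member stood at 456 ± 16.8 FPKM in brown fat, against 88.1 ± 11.7 FPKM in white fat and 419.8 ± 41.8 FPKM in soleus (SD, n = 3 libraries each). Together the members held 6.28% ± 0.126 of all FPKM in brown fat, against 1.93% ± 0.133 in white fat and 5.74% ± 0.341 in soleus. In brown fat between 24 and 25 of the 37 genes, in white fat and soleus between 23 and 24, lay within 2-fold of the median of their library. The SD over members of log2(FPKM + 1) was 1.67 ± 0.0216 in brown fat, against 1.49 ± 0.0407 in white fat and 1.64 ± 0.0289 in soleus. Without the 3 genes that match the symbol rule only, a choice made after the data were seen, it was 1.33, 1.28 and 1.37.

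The top of the order was held by the same few genes. Ndufa4 was the highest in every library, at 3347, 3577 and 3580.0 FPKM in brown fat, 719, 592 and 655 FPKM in white fat and 2878, 3476 and 2723 FPKM in soleus. After it came Ndufb8, Ndufb9 and Ndufa3 in brown fat, Ndufa3, Ndufb9 and Ndufa2 in white fat, and Ndufb9, Ndufa3 and Ndufb8 in soleus. Ndufb9, a distal membrane arm subunit that binds an acyl carrier protein, stood at 1441, 1416 and 1390.3 FPKM in brown fat, 309, 268 and 269 FPKM in white fat and 1475, 1775 and 1417 FPKM in soleus. Ndufb8, also of the distal arm, stood at 1454, 1494 and 1451 FPKM in brown fat, 262, 197 and 247 FPKM in white fat and 929, 1119 and 888 FPKM in soleus, and the small proximal subunit Ndufa3 at 1204, 1312 and 1188 FPKM in brown fat, 322, 255 and 301 FPKM in white fat and 1256, 1448 and 1176 FPKM in soleus. In brown fat these 3 genes did not overlap in level, whereas in white fat and soleus Ndufa3 and Ndufb9 overlapped, and in white fat Ndufa3 also overlapped Ndufb8.

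At the bottom were Ndufa4l2, Ndufb4, Ndufa11 and Ndufab1 in all 3 tissues. Ndufa4l2 stood at 5.74, 7.78 and 6.93 FPKM in brown fat, 2.75, 4.39 and 3.81 FPKM in white fat and 11.0, 10.2 and 8.77 FPKM in soleus, and Ndufb4 of the distal arm at 12.8, 12.8 and 16.2 FPKM in brown fat, 3.05, 2.76 and 4.01 FPKM in white fat and 11.0, 12.0 and 9.65 FPKM in soleus. Both were above 0 in every library, and in white fat their ranges overlapped. Ndufa11, a membrane subunit, stood at 42.1, 47.3 and 47.1 FPKM in brown fat, 14.0, 9.75 and 10.9 FPKM in white fat and 78.6, 95.1 and 75.5 FPKM in soleus. Ndufab1, the mitochondrial acyl carrier protein that also serves lipoic acid and iron-sulfur cluster synthesis, stood at 94.8, 81.1 and 81.1 FPKM in brown fat, 21.4, 17.9 and 18.2 FPKM in white fat and 56.4, 57.1 and 50.8 FPKM in soleus. For Ndufb4, 36.98% of the 50-base windows of the transcript also occur in transcripts of other genes, among them Ndufb4c; for Ndufa11 the share was 12.5%, with Ndufa11b, and for Ndufab1 12.3%. The share was 0% for Ndufa4l2, and among the highest members 23.4% for Ndufb9, 13.5% for Ndufb8 and 0% for Ndufa4 and Ndufa3. Such reads can be divided or dropped in counting, so levels of genes with shared windows are uncertain. The part of shared windows in the low levels was not tested. Between the extremes the order was blurred: of 36 pairs of neighbours in the order of means, ranges overlapped in 22 pairs for brown fat, 31 for white fat and 30 for soleus.

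Setting tissue means against each other over the 37 genes on the log2 scale gave Pearson r = 0.96 and Spearman rho = 0.93 for brown and white fat. For brown fat and soleus they were 0.95 and 0.83, and for white fat and soleus 0.96 and 0.88. Without the 4 lowest genes and Ndufa4 the Pearson r was 0.88, 0.83 and 0.86 for the same pairs. These values are across genes that share libraries, and they describe how alike the orders were.

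**Figure D1:**
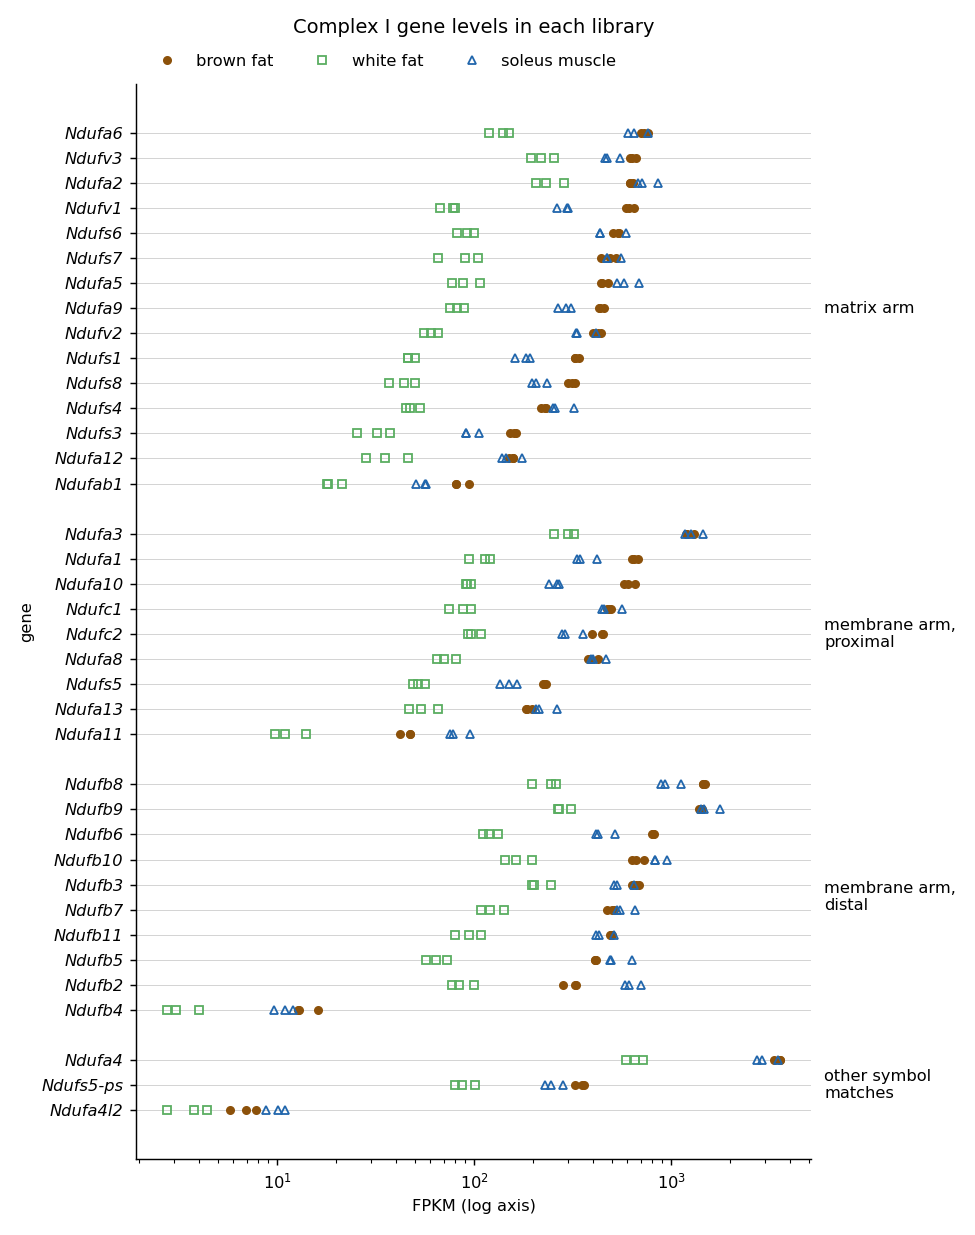
FPKM of the 37 genes in each of the 9 libraries on a log axis, grouped by the arm of the complex, with filled circles for brown fat, open squares for white fat and open triangles for soleus. White fat lies lowest for all 37 genes without overlap with either other tissue, and levels run from 2.75 FPKM (Ndufa4l2 in white fat) to 3580 FPKM (Ndufa4 in brown fat). Overlap was not counted over all genes.

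Brown fat against white fat asked how the heat-producing and the storing tissue differ in complex I transcripts. All 37 members were higher in brown fat in limma (adjusted p under 0.05, Benjamini-Hochberg over the 9913 genes tested), where 38.0% of all genes tested were higher and 34.8% lower. The median difference of the members on the log2(FPKM + 1) scale was 2.33, against 0.03 over all genes tested. No member's ranges overlapped between these tissues, but the share of all genes without overlap was not counted. The largest difference was that of Ndufv1, the flavin-carrying core subunit that takes electrons from NADH, with 646, 609 and 592 FPKM in brown fat, against 80.0, 67.2 and 78.5 FPKM in white fat (log2 difference 3.02 ± 0.10 SE, limma adjusted p = 1.6e-09). It was followed by the core subunits Ndufs8, with 300.0, 315 and 324 FPKM in brown fat, against 50.2, 37.1 and 43.9 FPKM in white fat (2.82 ± 0.12 SE), and Ndufv2, with 399, 427 and 442 FPKM in brown fat, against 65.3, 55.9 and 60.3 FPKM in white fat (2.79 ± 0.11 SE). In bulk tissue, fewer cells of a type and less RNA per cell cannot be told apart.

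The smallest differences were those of Ndufa4l2, at 0.76 ± 0.14 SE (limma adjusted p = 6.5e-04), Ndufa2, at 1.39 ± 0.13 SE, and Ndufv3, at 1.53 ± 0.12 SE. Ndufa2 and Ndufv3 are accessory subunits near the NADH-binding tip. Ndufa2 stood at 642, 619 and 621 FPKM in brown fat, against 286, 207 and 231 FPKM in white fat, and Ndufv3 at 664, 636 and 617 FPKM in brown fat, against 254, 194 and 218 FPKM in white fat. Both were more than 2 times as high in every brown fat library as in the highest white fat library. Under TPM scaling the difference of Ndufa4l2 was 0.31 (limma adjusted p = 0.154). By arm, the median difference was 2.42 over the 15 matrix arm genes, 2.10 over the 9 proximal and 2.17 over the 10 distal membrane arm genes, and 2.78 over the 6 core subunits.

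Markers of other cells moved with this comparison. The 5 macrophage genes measured, of 8 listed, summed to 40.3 to 47.7 FPKM in brown fat and 396 to 506 FPKM in white fat, and the 4 mesothelial genes to at most 0.0406 FPKM in brown fat and 60.2 to 90.5 FPKM in white fat. The 4 endothelial genes, all higher in brown fat, summed to 76.2 to 80.1 FPKM in brown fat and 31.9 to 53.0 FPKM in white fat. In white fat the complex I median was 100.1, 76.8 and 87.5 FPKM in replicates 1, 2 and 3, beside the brown adipocyte marker sums of 15.5, 5.56 and 64.1 FPKM given above. The part of these markers in the difference was not tested.

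White fat against soleus set the storing tissue beside oxidative muscle. All 37 members were lower in white fat, where 29.7% of all genes tested were lower and 54.5% higher. No member's ranges overlapped, and here too the share of all genes without overlap was not counted. The median difference of the members was -2.06 on the log2 scale, against 0.35 over all genes tested. It was most negative for 2 distal membrane arm genes: Ndufb5 stood at 72.5, 56.8 and 64.4 FPKM in white fat, against 496, 636 and 490.0 FPKM in soleus (-3.04 ± 0.12 SE, limma adjusted p = 2.2e-09), and Ndufb2 at 100.4, 77.5 and 83.7 FPKM in white fat, against 614, 706 and 586 FPKM in soleus (-2.86 ± 0.12 SE). Ndufa11 came next, with 14.0, 9.75 and 10.9 FPKM in white fat, against 78.6, 95.1 and 75.5 FPKM in soleus (-2.75 ± 0.13 SE). The smallest differences were those of Ndufv3, with 254, 194 and 218 FPKM in white fat, against 474, 552 and 464 FPKM in soleus (-1.16 ± 0.12 SE, limma adjusted p = 3.7e-06), Ndufa4l2 at -1.25 ± 0.14 SE and Ndufb3 at -1.39 ± 0.12 SE. The 5 macrophage genes, all higher in white fat, summed to 396 to 506 FPKM in white fat and 30.0 to 41.6 FPKM in soleus. The 4 mesothelial genes, also all higher, summed to 60.2 to 90.5 FPKM in white fat and 0.245 to 1.93 FPKM in soleus. Their part in the result was not tested.

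Brown fat against soleus compared the 2 tissues rich in mitochondria, and here the members parted. In limma 15 members were higher in brown fat, 7 were lower and 15 did not pass the test, where 52.9% of all genes tested were higher and 25.6% lower. The median difference of the members was 0.14, against 0.29 over all genes tested. This balance followed the scaling. Upper quartile scaling, which put the median of all genes at 0.01, gave 9 higher and 15 lower members with a median of -0.24, and median of ratios scaling, which put it at -0.01, gave 6 higher and 16 lower with a median of -0.27. Of the 9913 genes tested, 3892 were higher and 3749 lower under upper quartile scaling. Under median of ratios scaling 3763 were higher and 3867 lower. The count of lower members also fell to 4 without brown fat replicate 1 or without brown fat replicate 3, and to 3 without soleus replicate 2. Shares of all genes tested were not counted for these runs. Fast fibre markers in brown fat summed to 25.5, 192 and 102 FPKM in replicates 1, 2 and 3, against at least 25149 FPKM in soleus. All 4 endothelial genes were higher in brown fat, with sums of 76.2 to 80.1 FPKM in brown fat and 35.9 to 39.2 FPKM in soleus. Of the 5 macrophage genes, 4 were higher, with sums of 40.3 to 47.7 FPKM in brown fat and 30.0 to 41.6 FPKM in soleus. The part of these markers in the result was not tested.

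Of the higher members, 3 led with the widest differences. Ndufa10, a proximal membrane arm subunit with the fold of a nucleoside kinase, stood at 659.6, 579 and 603 FPKM in brown fat, against 240.3, 265 and 269 FPKM in soleus (log2 difference 1.25 ± 0.09 SE, limma adjusted p = 2.3e-07). Ndufv1 had the brown fat values given above, against 264, 301 and 298 FPKM in soleus (1.10 ± 0.10 SE, limma adjusted p = 1.6e-06). Ndufs1, the largest subunit and carrier of several iron-sulfur clusters, stood at 342, 326 and 325 FPKM in brown fat, against 162, 183 and 193 FPKM in soleus (0.88 ± 0.09 SE, limma adjusted p = 3.6e-06). In none of the 3 did the libraries of the tissues overlap, but they were picked for the widest differences between these same libraries. The share of all genes without overlap was not counted. Ndufb6 (0.85), Ndufa1 (0.84), Ndufs3 (0.72), Ndufab1 (0.63), Ndufa9 (0.61), Ndufs5 (0.60), Ndufb8 (0.59), Ndufs8 (0.56), Ndufc2 (0.49), Ndufs5-ps (0.46), Ndufv3 (0.37) and Ndufb4 (0.33) were also higher in brown fat by log2 difference. Most of these calls followed the scaling. Under upper quartile scaling the call was lost for Ndufb8 (0.21), Ndufs8 (0.19), Ndufc2 (0.12) and Ndufs5-ps (0.0886), and Ndufv3 (-0.0101) and Ndufb4 (-0.0216) changed sign. Under median of ratios scaling it was lost for the same 6, with Ndufv3 at -0.0445 and Ndufb4 at -0.0538, and also for Ndufab1 (0.23), Ndufa9 (0.20) and Ndufs5 (0.19). Ndufa10, Ndufv1, Ndufs1, Ndufb6, Ndufa1 and Ndufs3 passed as higher under every alternative run. Ndufv3 and Ndufb4 also lost the call when single libraries were left out (Ndufv3 brown fat replicate 1 or soleus replicate 3, Ndufb4 brown fat replicate 3 or soleus replicate 1 or 3).

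The members lower in brown fat were led by Ndufb2, with 329, 284 and 327 FPKM in brown fat, against 614, 706 and 586 FPKM in soleus (-1.02 ± 0.12 SE, limma adjusted p = 1.5e-05). Ndufa11 followed, with 42.1, 47.3 and 47.1 FPKM in brown fat, against 78.6, 95.1 and 75.5 FPKM in soleus (-0.85 ± 0.13 SE, limma adjusted p = 1.1e-04), and then Ndufa4l2 (-0.49 ± 0.14 SE, limma adjusted p = 0.00848). In all 3 the highest brown fat library lay below the lowest soleus library, but they were picked as the most negative differences between these libraries. For this direction too, the share of all genes without overlap was not counted. Ndufa5 of the matrix arm (-0.39), Ndufb5 (-0.37), Ndufb10 (-0.36) and Ndufs4, an accessory subunit that holds the NADH-binding tip in place (-0.28), were lower by smaller amounts. Ndufs4 and Ndufb10 lost the call with the replicate number as a block (limma adjusted p = 0.0573 and 0.0502). These 2 and Ndufa5 also lost it without brown fat replicate 1, without brown fat replicate 3 or without soleus replicate 2, Ndufs4 also without brown fat replicate 2, and Ndufb5 without soleus replicate 2. The 15 members that did not pass the test ran from -0.26 (Ndufa13) to 0.24 (Ndufv2). Of these, 8 were called lower under both upper quartile and median of ratios scaling: Ndufa13 (-0.64 and -0.67), Ndufa2 (-0.63 and -0.67), Ndufb7 (-0.59 and -0.63), Ndufb9 (-0.51 and -0.54), Ndufa8, Ndufa3, Ndufc1 and Ndufs7. Ndufa13, Ndufa2 and Ndufb7 were also called lower under TPM scaling, and Ndufv2 higher (0.20). Ndufa12 stood at 0.03 as deposited and at -0.38 under median of ratios scaling (limma adjusted p = 0.0456), and 53.8% of the windows of its transcript also occur in another gene's transcript.

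**Figure D2:**
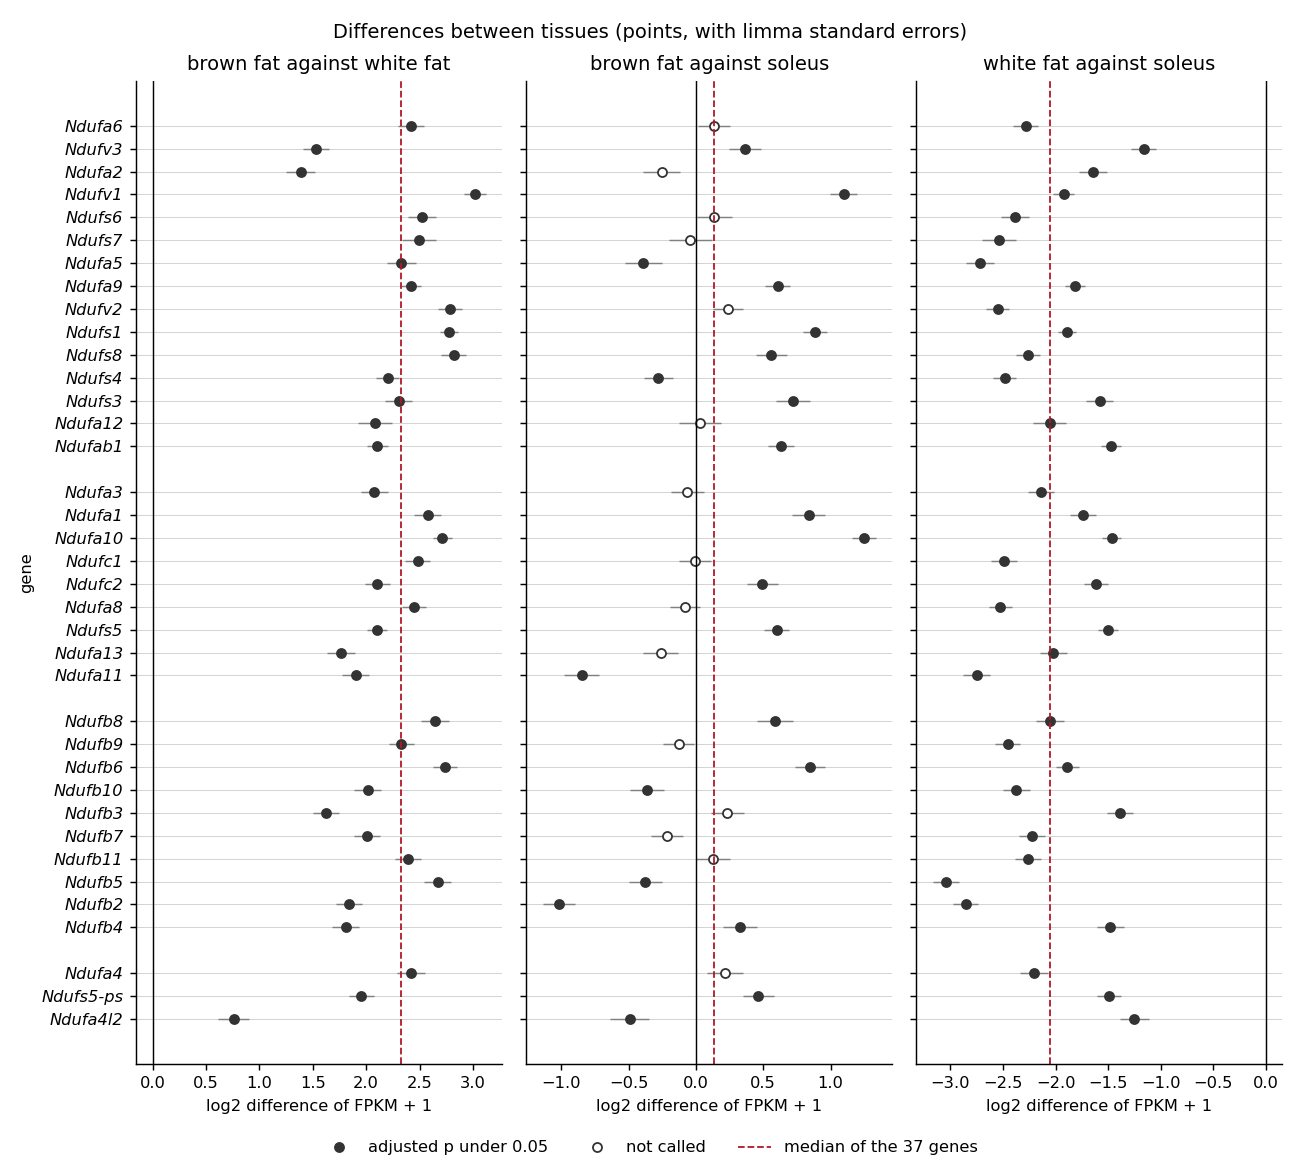
Log2 difference of FPKM + 1 for each of the 37 genes (points, with limma standard errors) in the 3 comparisons, filled where the adjusted p was under 0.05, with the median of the 37 genes as a dashed line. The median is 2.33 for brown against white fat and -2.06 for white fat against soleus, with all genes on the same side of 0, and 0.14 for brown fat against soleus, where genes lie on both sides, from -1.02 (Ndufb2) to 1.25 (Ndufa10).

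To compare the proportions of the subunit transcripts, the median log2 level of the 37 members was taken from each library. Each gene is thus set against the middle of the complex in its own library. Protein was not measured, so these proportions are those of transcripts only. Scaling of whole libraries then acts only through the added 1 FPKM: under TPM scaling Ndufb4 (-0.34, limma adjusted p = 0.0531) and Ndufab1 (-0.22, limma adjusted p = 0.0647) lost the relative call in brown against white fat. The centring fixes that differences fall on both sides of 0. Within a tissue these relative levels were steady, with a median SD over members of 0.056 log2 units in brown fat, against 0.064 in white fat and 0.054 in soleus. Across the tissue means they spanned a median of 0.60 log2 units. For 17 members the span was under 0.5, with the least for Ndufb11 (0.03), Ndufa6 (0.05) and Ndufa4 (0.10), and for 4 members it was at least 1 (Ndufa4l2, Ndufb2, Ndufa10 and Ndufv3). Ndufb11, a distal membrane arm gene, had relative levels of 0.12 ± 0.04 in brown fat, against 0.09 ± 0.03 in white fat and 0.11 ± 0.05 in soleus (SD, n = 3).

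In the fit of relative levels over all genes, 9 members were relatively higher in brown than in white fat, 16 relatively lower and 12 did not pass the test. In brown fat against soleus 14 were higher, 13 lower and 10 did not pass, and in white fat against soleus 18 were higher, 10 lower and 9 did not pass. Over all genes tested, 1.73% were higher and 96.5% lower in the first of these comparisons, 41.2% and 26.4% in the second and 93.1% and 4.48% in the third, because the middle of the complex itself moves. In the comparisons with white fat, so many genes passed that the adjusted p-values are close to the unadjusted ones. The 3 comparisons share libraries, so their values are set side by side without reading them as separate evidence.

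The core subunits of the matrix arm stood relatively high in brown fat. Of these 6, 4 were relatively higher and 0 lower in brown fat against white fat (Ndufv1, Ndufs8, Ndufv2 and Ndufs1), and 4 were higher and 0 lower in brown fat against soleus (Ndufv1, Ndufs1, Ndufs3 and Ndufs8). The median FPKM of the 6 was 0.84, 0.79 and 0.85 of the complex I median in brown fat, against 0.58, 0.66 and 0.61 in white fat and, in soleus, 0.57, 0.57 and 0.64. The brown fat libraries lay above all others. Ndufv1 had relative levels of 0.43 ± 0.10 in brown fat, against -0.22 ± 0.09 in white fat and -0.54 ± 0.13 in soleus (SD, n = 3), a relative difference of 0.66 ± 0.09 SE against white fat (limma adjusted p = 4.8e-06) and 0.98 ± 0.09 SE against soleus (limma adjusted p = 1.5e-07). Ndufs1 had relative differences of 0.41 ± 0.11 and 0.76 ± 0.11 SE, and Ndufs8, an iron-sulfur subunit next to the ubiquinone site, of 0.46 ± 0.08 and 0.44 ± 0.08 SE.

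The other core subunits did not move alike. Ndufv2, the iron-sulfur partner of Ndufv1, was relatively higher than in white fat (0.42 ± 0.09 SE, limma adjusted p = 1.7e-04) but did not pass the test against soleus (0.12 ± 0.09 SE, limma adjusted p = 0.244). The ratio of Ndufv1 to Ndufv2 FPKM was accordingly 1.62, 1.42 and 1.34 in brown fat, against 1.23, 1.20 and 1.30 in white fat and, in soleus, 0.789, 0.722 and 0.902. All soleus libraries were below 1 and all fat libraries above it. The pair was chosen after values were seen, so this separation is a description only. The ratio of Ndufv1 to Ndufs1 varied less, at 1.89, 1.87 and 1.82 in brown fat, against 1.60, 1.46 and 1.69 in white fat and, in soleus, 1.63, 1.64 and 1.54. Ndufs3, which sits beside the ubiquinone site, was relatively higher than in soleus (0.60 ± 0.09 SE) and stood at -0.06 ± 0.09 SE against white fat (limma adjusted p = 0.513), and 39.7% of the windows of its transcript also occur in other genes' transcripts. Ndufs7, the carrier of the last cluster of the chain, passed in neither (0.13 ± 0.09 and -0.16 ± 0.09 SE).

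Accessory subunits of the matrix arm went both ways. Ndufv3 and Ndufa2 were relatively high in white fat. The relative level of Ndufv3 was 0.49 ± 0.09 in brown fat, against 1.32 ± 0.01 in white fat and 0.24 ± 0.00 in soleus, with -0.84 ± 0.08 SE in brown against white fat (limma adjusted p = 1.7e-08) and 1.08 ± 0.08 SE in white fat against soleus (limma adjusted p = 5.5e-10). That of Ndufa2 was 0.46 ± 0.08 in brown fat, against 1.44 ± 0.06 in white fat and 0.84 ± 0.06 in soleus, with -0.98 ± 0.08 and 0.60 ± 0.08 SE in the same comparisons. Ndufa5, beside the ubiquinone-reducing core, was relatively lower in brown fat than in soleus (-0.51 ± 0.08 SE) and in white fat than in soleus (-0.47 ± 0.08 SE). Ndufa9, which binds a nicotinamide nucleotide, was relatively higher than in soleus in both (0.49 ± 0.09 and 0.43 ± 0.09 SE). The ratio of Ndufa9 to Ndufa5 FPKM was 1.04, 0.919 and 0.968 in brown fat, against 0.829, 0.978 and 0.932 in white fat and, in soleus, 0.502, 0.45 and 0.51. Every soleus library lay below every fat library, which followed from choosing genes called in opposite directions against soleus. Ndufab1 was relatively high in both fats against soleus (0.51 ± 0.11 and 0.77 ± 0.11 SE). Ndufs4 was relatively low in both (-0.40 ± 0.09 and -0.24 ± 0.09 SE). In white fat against soleus this call of Ndufs4 was lost without white fat replicate 1 or 3, without soleus replicate 2, with a pseudocount of 5, without the variance trend and without the 3 genes that match the symbol rule only (limma adjusted p = 0.0596 to 0.0931).

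Of the 9 proximal membrane arm genes, 2 were relatively higher and 5 lower in brown fat against white fat, and 4 were higher and 4 lower in brown fat against soleus. Ndufa10 had relative levels of 0.43 ± 0.15 in brown fat, against 0.08 ± 0.16 in white fat and -0.70 ± 0.14 in soleus, with 0.35 ± 0.11 SE against white fat (limma adjusted p = 0.00596) and 1.12 ± 0.11 SE against soleus (limma adjusted p = 1.3e-07). Ndufa1, a small subunit whose human counterpart is mutated in X-linked complex I deficiency, had 0.21 ± 0.08 and 0.72 ± 0.08 SE. The call of Ndufa1 against white fat was lost with the replicate number as a block, without brown fat replicate 2 or 3, without the variance trend and without the 3 genes that match the symbol rule only (limma adjusted p = 0.0512 to 0.0782). Ndufa11 was on the other side, with relative levels of -3.30 ± 0.06 in brown fat, against -2.83 ± 0.07 in white fat and -2.33 ± 0.04 in soleus and relative differences of -0.46 ± 0.10 SE against white fat and -0.97 ± 0.10 SE against soleus. Ndufa13, also known as GRIM-19, was relatively lower in brown fat as well (-0.60 ± 0.09 and -0.38 ± 0.09 SE); 28.5% of the windows of its transcript also occur in other genes' transcripts, mostly Tssk6. Ndufs5, which lies on the side of the intermembrane space, was relatively lower than in white fat (-0.26 ± 0.09 SE) and higher than in soleus (0.48 ± 0.09 SE), and its pseudogene Ndufs5-ps had -0.41 ± 0.09 and 0.34 ± 0.09 SE. Of the windows of Ndufs5, 41.2% also occur in a transcript of another gene, so reads of the gene and its copies may have been mixed.

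Of the 10 distal membrane arm genes, 3 were relatively higher and 5 lower in brown fat against white fat, and 2 were higher and 5 lower in brown fat against soleus. Ndufb2 had relative levels of -0.54 ± 0.17 in brown fat, against -0.02 ± 0.04 in white fat and 0.60 ± 0.02 in soleus, with -0.53 ± 0.09 SE against white fat and -1.14 ± 0.09 SE against soleus (limma adjusted p = 4.0e-05 and 1.5e-08). For Ndufb2, 33.5% of the windows of the transcript also occur in other genes' transcripts. The ratio of Ndufa10 to Ndufb2 FPKM was 2.01, 2.04 and 1.85 in brown fat, against 0.957, 1.18 and 1.08 in white fat and, in soleus, 0.391, 0.375 and 0.459. The 3 tissues did not overlap in this ratio: Ndufa10 exceeded Ndufb2 in brown fat, was close to it in white fat and was below it in soleus. These genes are the extremes of the relative fit of brown fat against soleus, so separation of those tissues followed from the choice. The ratio of Ndufv1 to Ndufb2 was 1.97, 2.14 and 1.81 in brown fat, against 0.797, 0.867 and 0.938 in white fat and, in soleus, 0.429, 0.427 and 0.508, also without overlap. Ndufv1 came next after Ndufa10 in that fit, so the same limit applies. Ndufb5 was relatively lowest in white fat, with -0.80 ± 0.08 SE against soleus, and Ndufb3 relatively highest there, with 0.85 ± 0.08 SE. Ndufb6 (0.37 ± 0.08 and 0.72 ± 0.08 SE) and Ndufb8 (0.28 ± 0.07 and 0.47 ± 0.07 SE) were relatively high in brown fat against white fat and soleus. Of the windows of Ndufb6, 34.1% also occur in Smim27, which overlaps it. Ndufb7 and Ndufb10, both exposed to the intermembrane space, were relatively lower in brown fat in both comparisons (Ndufb7 -0.35 ± 0.08 and -0.34 ± 0.08 SE, Ndufb10 -0.35 ± 0.08 and -0.48 ± 0.08 SE).

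**Figure D3:**
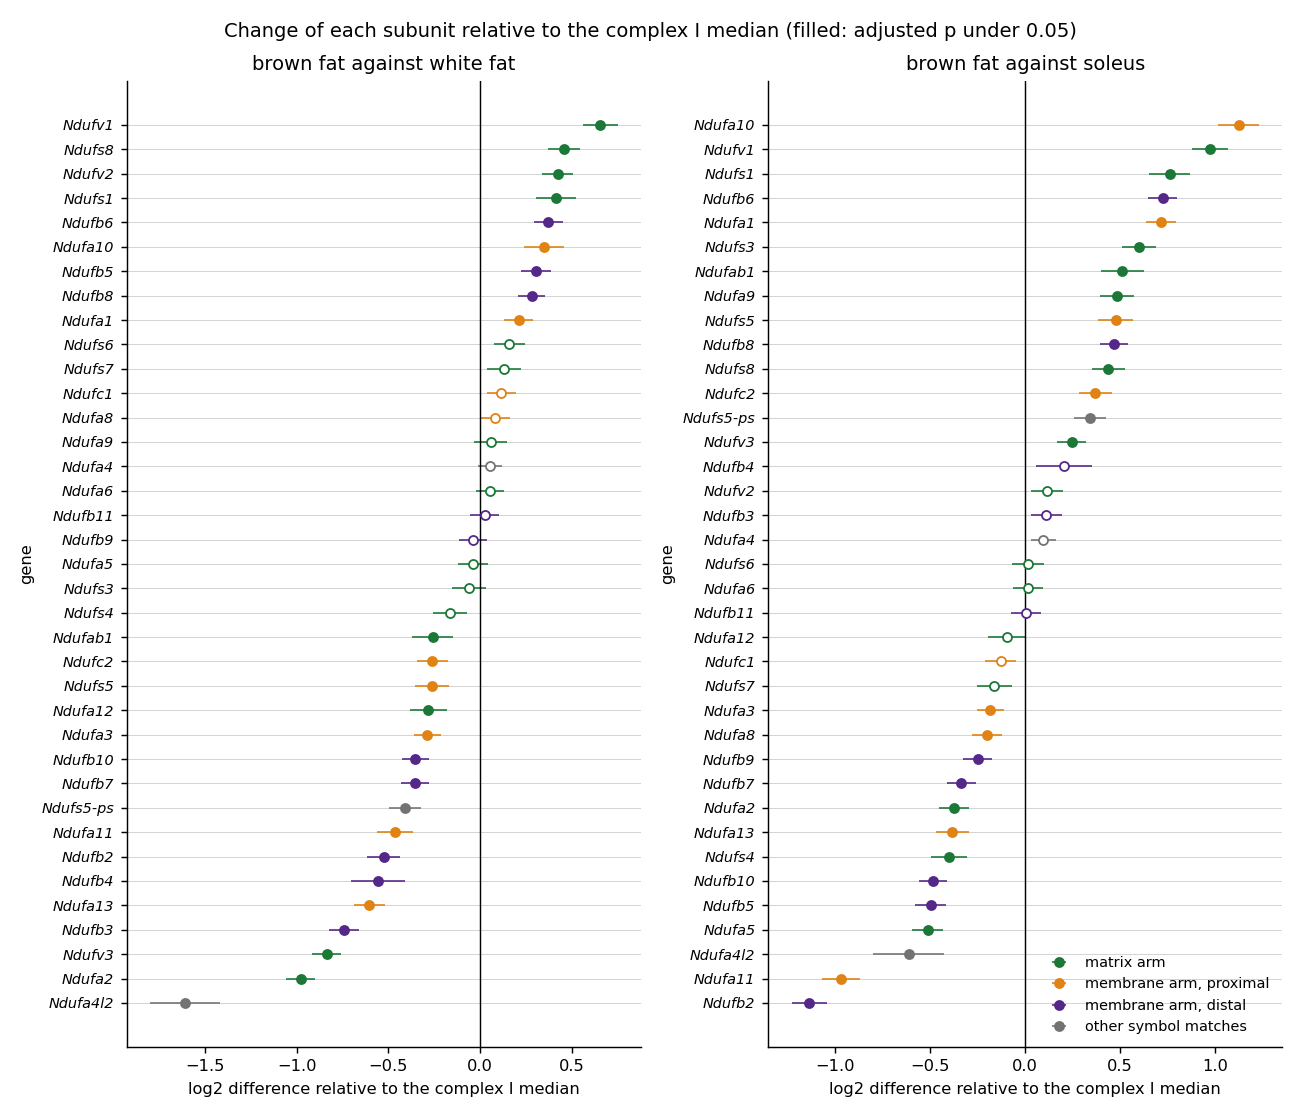
Log2 difference of each of the 37 genes relative to the complex I median (points, with limma standard errors), sorted by size and coloured by arm, for brown against white fat (left) and brown fat against soleus (right), filled where the adjusted p was under 0.05. Ndufv1 lies at the top on the left (0.66) and Ndufa10 on the right (1.12), with Ndufa4l2 (-1.61) and Ndufb2 (-1.14) at the bottom.

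Outside the complex proper, Ndufa4 kept close to the middle of complex I, with relative levels of 2.94 ± 0.04 in brown fat, against 2.88 ± 0.05 in white fat and 2.84 ± 0.05 in soleus, and did not pass the test in any relative comparison (from 0.04 to 0.10, limma adjusted p = 0.423, 0.216 and 0.554). Ndufa4l2, at 2.75 to 10.98 FPKM in all libraries, had the widest relative difference, -1.61 ± 0.19 SE in brown against white fat. Its relative level in white fat also spread the most between libraries, with an SD of 0.45. At these levels the added 1 FPKM shrinks differences in level, but it can widen relative ones. Ndufb4 had a relative difference of -0.56 in brown against white fat, and of -0.31 with a pseudocount of 0.1 (limma adjusted p = 0.0805).

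Relative calls depended on what stood for the middle of the complex. Against the median of the core subunits in place of all members, 1 member was relatively higher and 29 lower in brown fat against white fat, and 5 were higher and 23 lower in brown fat against soleus. Shares of all genes against this centre were not counted. Ndufa1, Ndufa10, Ndufb5, Ndufb6, Ndufb8 and Ndufs1 changed sign in brown against white fat, and Ndufb8, Ndufc2, Ndufs5, Ndufs5-ps, Ndufs8 and Ndufv3 in brown fat against soleus. The difference between 2 members, such as Ndufa10 and Ndufb2, is the same whatever the centre.

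Transcript length moved with the comparison of brown fat and soleus. The 11 members with transcripts of at least 1000 bases had a median log2 difference of 0.61 and the 25 shorter ones 0.03. Across the 36 members with a length the Pearson r with log2 length was 0.40, against 0.06 over all genes. Spearman rho was 0.30, against 0.09 over all genes. Length was that of the longest matched transcript for members, but the median over a gene's transcripts for all genes. In brown against white fat the medians were 2.42 for the long and 2.33 for the short ones. Ndufa10, Ndufv1 and Ndufs1 are among the long transcripts and Ndufb2 and Ndufa11 among the short ones. The part of length in these results was not tested.

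Beside complex I, the other respiratory complexes were set from lists of their nuclear genes. Complex II, which feeds electrons from succinate into the chain, had a median FPKM of 2.01 ± 0.0264 times the complex I median in brown fat, against 1.42 ± 0.0817 in white fat and 0.848 ± 0.0582 in soleus (SD, n = 3). Its flavin-carrying subunit gene Sdha stood at 1094, 1094 and 1067 FPKM in brown fat, 173, 155 and 169 FPKM in white fat and 281, 298 and 329.9 FPKM in soleus. The ratio for complex III was 2.19 ± 0.0692 in brown fat, against 1.46 ± 0.0610 in white fat and 1.42 ± 0.0847 in soleus, and that for complex IV 3.58 ± 0.220 in brown fat, against 1.29 ± 0.0822 in white fat and 2.56 ± 0.0302 in soleus. For complex V, the ATP synthase, it was 1.17 ± 0.0392 in brown fat, against 2.43 ± 0.223 in white fat and 2.27 ± 0.0545 in soleus. These ratios set list medians side by side, and a median can rest on a different gene in each tissue. Gene by gene, median relative differences in brown against white fat were 0.46, 0.37, 0.17 and -0.31 for complexes II, III, IV and V. The median over all genes tested was -2.33. In brown fat against soleus they were 0.76, 0.32, 0.19 and -0.37, against 0.17 over all genes tested. All 4 complex II genes, all 9 of complex III and all 14 of complex IV exceeded white fat in the brown fat libraries in limma, with medians of 2.83, 2.73 and 2.53 on the log2 scale, and 12 of 14 complex V genes tested were higher and 2 lower, with a median of 2.06. Against soleus the brown fat counts were 4 higher and 0 lower of 4 for complex II, 6 and 0 of 9 for complex III, 6 and 2 of 14 for complex IV and 4 and 5 of 14 for complex V.

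Some of these lists hold tissue isoforms, which complex I does not show to this degree. The muscle isoform gene Cox6a2 stood at 0.75, 5.76 and 2.22 FPKM in brown fat, against 2728, 3363 and 2771 FPKM in soleus, and its counterpart Cox6a1 at 3788, 3696 and 3492 FPKM in brown fat, against 113, 110.4 and 91.5 FPKM in soleus. The complex V gene Atp5g1, which encodes part of the ring of the synthase, stood at 1.45, 1.64 and 1.29 FPKM in brown fat, against 254, 330.2 and 262 FPKM in soleus. Its relative Atp5g3 was also lower in brown fat, at 331, 351 and 347 FPKM, with 2076, 2391 and 2157 FPKM for soleus. Levels of Atp5g2 were 0.561, 0.576 and 0.569 FPKM in brown fat, against 0.662, 0.695 and 0.829 FPKM in soleus. None of these genes stood higher in brown fat, so an exchange like that of Cox6a1 and Cox6a2 was not seen among them. The widest log2 difference of a complex I member in the same comparison was 1.25, against 5.12 ± 0.12 SE for Cox6a1, -9.77 ± 0.37 SE for Cox6a2 and -6.84 ± 0.15 SE for Atp5g1 (limma adjusted p = 4.3e-11, 1.2e-09 and 2.0e-11).

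**Figure D4:**
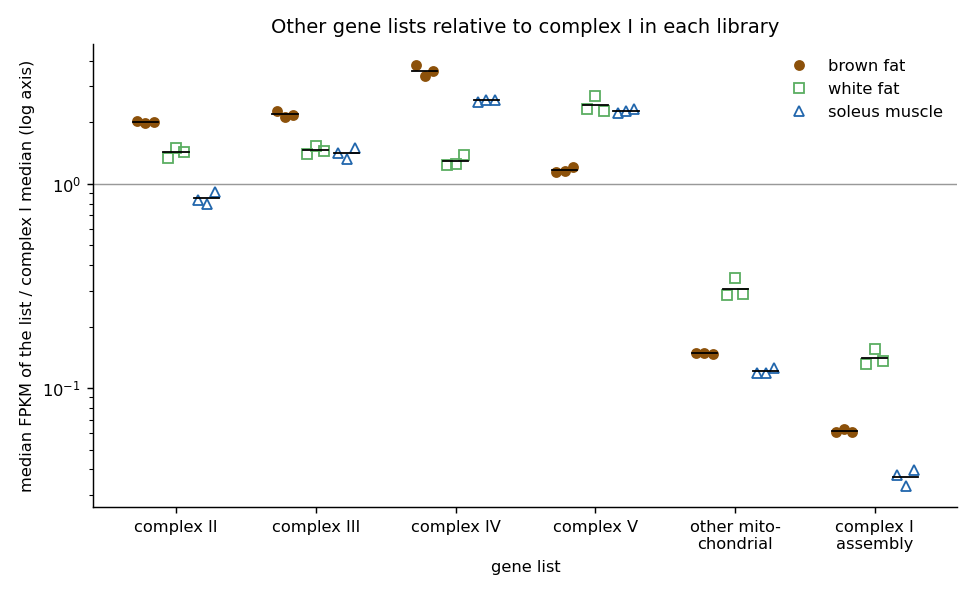
Median FPKM of each gene list divided by the complex I median of the same library (log axis), with 1 point per library and a bar at the mean of the 3 libraries of a tissue. Brown fat stands above white fat and soleus for complexes II (2.01), III (2.19) and IV (3.58) and below them for complex V (1.17), and white fat stands above the others for other mitochondrial genes (0.307) and for assembly factors (0.141). The median of a list can rest on a different gene in each tissue.

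Transcripts of assembly factors, proteins that build the complex and do not stay in it, were far less abundant than those of its subunits. The median of the 12 measured, of 19 listed, was 0.0617 ± 0.0009 times the complex I median in brown fat, against 0.141 ± 0.0123 in white fat and 0.0368 ± 0.0033 in soleus (SD, n = 3). All 12 passed as higher in brown fat against white fat, with a median log2 difference of 1.42, led by Ecsit (2.39 ± 0.09 SE) and Dmac2 (2.20 ± 0.07 SE). In brown fat against soleus 10 were higher, 0 lower and 2 did not pass (Dmac2 and Ndufaf4). Foxred1 stood at 79.6, 74.5 and 70.9 FPKM in brown fat, 17.6, 18.3 and 17.3 FPKM in white fat and 9.90, 10.5 and 10.7 FPKM in soleus, and its difference from soleus was 2.74 ± 0.07 SE (limma adjusted p = 6.3e-11). Nubpl, which delivers iron-sulfur clusters to complex I, stood at 12.1, 11.7 and 10.5 FPKM in brown fat, 6.17, 6.42 and 6.08 FPKM in white fat and 2.42, 3.04 and 3.21 FPKM in soleus (1.68 ± 0.09 SE in brown fat against soleus). In white fat against soleus 3 assembly factors were higher (Nubpl, Foxred1 and Acad9), 6 lower and 3 did not pass, where all 37 complex I members were lower. The 20 other mitochondrial genes had a median of 0.148 ± 0.0013 times the complex I median in brown fat, against 0.307 ± 0.0336 in white fat and 0.121 ± 0.0036 in soleus.

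Of the 10 regulators of mitochondrial genes listed, 9 were tested. In brown against white fat 4 were higher and 5 did not pass: the coactivator gene Ppargc1b (3.69 ± 0.09 SE), Ppargc1a (2.93 ± 0.24 SE), the nuclear receptor gene Esrrg (2.48 ± 0.13 SE) and Gabpa (1.31 ± 0.09 SE) were higher. In brown fat against soleus Ppargc1b, Gabpa and Yy1 were higher and Esrrb, Esrrg and Pprc1 lower. Ppargc1b stood at 24.0, 19.8 and 23.4 FPKM in brown fat, 0.673, 0.863 and 0.879 FPKM in white fat and 3.31, 3.60 and 3.75 FPKM in soleus. Esrrg stood at 5.76, 5.65 and 4.51 FPKM in brown fat, 0.149, 0.0449 and 0.201 FPKM in white fat and 11.6, 16.1 and 16.9 FPKM in soleus. Ppargc1a overlapped between brown fat and soleus, with 20.8, 8.92 and 12.1 FPKM in brown fat, against 11.0, 7.59 and 10.6 FPKM in soleus (limma adjusted p = 0.13). Nrf1, whose protein binds the NRF1 motif, stood at 3.25 ± 0.171 FPKM in brown fat, against 3.19 ± 0.212 FPKM in white fat and 3.14 ± 0.281 FPKM in soleus (SD, n = 3) and did not pass the test in any comparison (limma adjusted p from 0.661 to 0.837).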

How the data were processed

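The authors deposited FPKM values of 9 libraries in 1 matrix of 18401 rows named by RefSeq accessions. Per the submitters' processing notes, TopHat 1.4.1, Cufflinks 2.0.1 and build mm9 were used, and per the labels' protocols total RNA was extracted with TRIzol before library preparation with Illumina's TruSeq RNA kit, version 2. FPKM divides by the mapped total, so a few abundant transcripts lower all others. Sums of FPKM, which also depend on transcript lengths, ran from 213936 (white fat replicate 2) to 352502 (soleus replicate 2). Between 8487 and 9305 genes reached 1 FPKM. Accessions were named from RefSeq (18305 rows) and GENCODE (38 rows) tables, and rows of a symbol were summed.

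With limma 3.58.1 (R 4.3.3) a trended fit of log2(FPKM + 1) to all 9 libraries left 6 residual degrees of freedom, over 9913 genes at 1 FPKM or more in at least 3 libraries. The fit was tested on simulated data. Tests were two-sided, with Benjamini-Hochberg adjustment within a comparison. Relative levels were fitted likewise, after the members' median was taken from each library. Genes are named by extremes of level and of difference, as core subunits or as relatives of other machinery, and up to 6 called members per direction in relative comparisons. Ratios of pairs and transcript lengths were chosen after values were seen. The members and lists were chosen with earlier results of these data known. Alternatives covered pseudocount, filter, scaling, libraries, variance model, replicate block, summing of rows and centre.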

Additional observations from a re-analysis of the deposited data

How the results depend on the processing

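Across all alternatives run, 36 of 37 members kept their call in brown against white fat, 37 of 37 in white fat against soleus and 12 of 37 in brown fat against soleus; of relative calls, 12 of 25, 21 of 28 and 15 of 27 were kept in the same comparisons. The causes were not tested unless the alternative's own construction shows them. FPKM without read totals limits the precision of low genes such as Ndufb4 and Ndufa4l2.

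With TPM scaling the members' median difference was 1.74 in brown against white fat and -1.52 in white fat against soleus. White fat against soleus had -2.35 with upper quartile and -2.53 with median of ratios scaling. In brown fat against soleus, upper quartile scaling gave 9 higher and 15 lower members with a median of -0.24 (Ndufb4 -0.0216, Ndufv3 -0.0101), and median of ratios scaling 6 and 16 with a median of -0.27 (Ndufb4 -0.0538, Ndufv3 -0.0445, Ndufa12 -0.38). Over all genes tested, the former gave 3892 higher and 3749 lower, and the latter 3763 higher and 3867 lower. Of all genes called in brown against white fat, 22.6% were higher with TPM scaling and 52.2% as deposited. In brown fat against soleus 50.9% were higher with upper quartile and 49.3% with median of ratios scaling, against 67.4% as deposited, and in white fat against soleus 78.8% with TPM and 48.7% with median of ratios scaling, against 64.7% as deposited.

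With the mean of members as the centre, 17 were relatively higher in brown than in white fat and 17 relatively lower in white fat than in soleus, where Ndufb8 was at -0.00357. With the core subunits as the centre, 1 was higher and 29 lower in brown against white fat (Ndufa1 -0.21, Ndufa10 -0.0701, Ndufb5 -0.11, Ndufb6 -0.0465, Ndufb8 -0.13, Ndufs1 -0.00497), and 5 were higher and 23 lower in brown fat against soleus (Ndufb8 -0.0100, Ndufc2 -0.11, Ndufs5 -0.00104, Ndufs5-ps -0.14, Ndufs8 -0.0383, Ndufv3 -0.23). Shares of all genes were not counted for either centre. The SD over members was 1.69 in brown and 1.55 in white fat with a pseudocount of 0.1, and 1.58, 1.32 and 1.56 in brown fat, white fat and soleus with a pseudocount of 5. It was 1.54 in white fat with TPM scaling, and 1.33, 1.28 and 1.37 in brown fat, white fat and soleus without Ndufa4, Ndufa4l2 and Ndufs5-ps, a set chosen after seeing the data.

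Leaving out each library in turn gave 37 higher and 0 lower members in brown against white fat (medians 2.22 to 2.43) and 0 higher and 37 lower in white fat against soleus (medians -2.21 to -1.93). In brown fat against soleus it gave 13 to 18 higher and 3 to 8 lower members (medians 0.07 to 0.28), with 4 lower without brown fat replicate 1 or 3 and 3 lower without soleus replicate 2. Relative counts ran from 8 to 9 higher and 15 to 16 lower, 13 to 14 higher and 11 to 13 lower, and 16 to 19 higher and 8 to 10 lower in brown against white fat, brown fat against soleus and white fat against soleus. Deviations of same-numbered libraries from their tissue means correlated at -0.22 to 0.08 over 9 pairs, and those of other pairs at -0.19 to 0.36. With means of only 3 libraries, these values cannot decide whether same-numbered libraries share a mouse. With the replicate number as a block, 15 members were higher and 5 lower in brown fat against soleus, and relative counts were 8 higher and 15 lower in brown against white fat. Shares of all genes tested were not counted for the block or for the runs without a library.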
